A study of Drosophila melanogaster with 13 samples.

Results

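Vha100-3 and Trpml, a proton pump gene and an endolysosomal channel gene, were followed in testes of Drosophila melanogaster on 13 arrays over 5 genotypes. They are 2 of the 468 genes that could be matched to a symbol among the 25782 targets (genes, transcripts or cDNA clones) of the array. Each was represented by 1 probe with 1 spot per array: Vha100-3 by its cDNA clone AT03238, from an adult testis library, and Trpml by the accession of its RefSeq transcript. Further probes of these genes under FlyBase transcript names were not matched here. The 2 genes were chosen by their processed signals on these same arrays, for their falls in dany, sa or aly. Their levels and differences are therefore given below as a description, with no test. Vha100-3 lies on chromosome arm 2R and Trpml on 3L.

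The vacuolar proton pump (V-ATPase) is a rotary enzyme that uses ATP to move protons into endosomes, lysosomes and secretory vesicles. Its peripheral sector hydrolyses ATP and its membrane sector carries the protons. The large membrane subunit a, encoded by the Vha100 genes in flies, forms the path of the protons and helps to direct the pump to particular membranes. Trpml is the fly counterpart of the mammalian mucolipins, channels that release calcium and other cations from late endosomes and lysosomes, and whose loss impairs lysosomal function. In mammalian sperm the same kind of pump acidifies the acrosome, a vesicle related to lysosomes.

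RNA from 80 pooled testes of males aged 0 to 2 days, raised at 25 °C, was hybridised to each 1-colour Agilent array. The 4 control arrays came from w[1118] males with the deficiency Df(2R)BSC802, on chromosome arm 2R, over a wild-type chromosome. The 3 dany arrays came from w[1118] males with the allele dany[ex11] over that same deficiency. The sa males (2 arrays) carried sa[1] over sa[2], with the markers th and red on the first chromosome and ru, h and ca on the second. The aly males (2 arrays) were w* and carried aly[2] over aly[5], both chromosomes marked with red and e. The topi males (2 arrays) carried bw and topi[Z3-0707] over topi[Z3-2139]. These 3 groups lack the deficiency and differ from the control in background. Whether Vha100-3 lies inside the deficiency is not given in the sources used here. The protein made by sa is a testis TAF, a testis-specific relative of a subunit of the general transcription machinery. Those made by aly and topi belong to tMAC, the testis meiotic arrest complex, and loss of any of these 3 stops germ cells as primary spermatocytes. Whole testes were pooled, so fewer cells of a type and less RNA per cell cannot be told apart. Of 35 marker genes of germline, somatic, muscle, fat body, blood and accessory gland cells only eya, puc and ptc, all somatic cyst or hub cell genes, were matched, so the tissue could not be checked against germline markers. Levels below are on the log2 scale, with the 75th percentile of each array's processed signals set to 0, and differences are between group means of these levels.

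Between 64.4% and 79.7% of the non-control spots of an array stood well above background, with the 3 highest shares (78.9% to 79.7%) in dany. The 75th percentile of the signal was also highest in dany, at 2743 to 3578, against 1220 to 2240 for control, 2383 to 2384 for sa, 1889 to 2451 for aly and 1811 to 1889 for topi. The second topi array stood apart from the first. This was measured over the 2435 other targets at least 8-fold lower in aly than in control, a set chosen without the topi arrays. Their median level relative to the control mean was -6.72 on the first topi array (interquartile range -9.47 to -4.26) and -4.003 on the second (-4.47 to -3.40). On the aly arrays it was -5.90 and -6.07, with interquartile ranges of -8.49 to -4.18 and -8.68 to -4.36. The second topi array was at least 8-fold higher than the first for 1178 of 19758 targets tested and at least 8-fold lower for 2. Of these 1178 targets, 1045 belonged to the 2435. In the other 4 groups the first 2 arrays differed this way for 2 to 22 targets in the same direction and for 202 to 346 in the opposite one. Those pairs are no like baseline for topi. In each, the first array lay on slide 1 and the second on slide 2 or 3, scanned on another day. The topi arrays lay on slides 2 and 3, scanned on the same day. Because the topi arrays differ so widely, results for topi are given for each array.

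**Figure D1:**
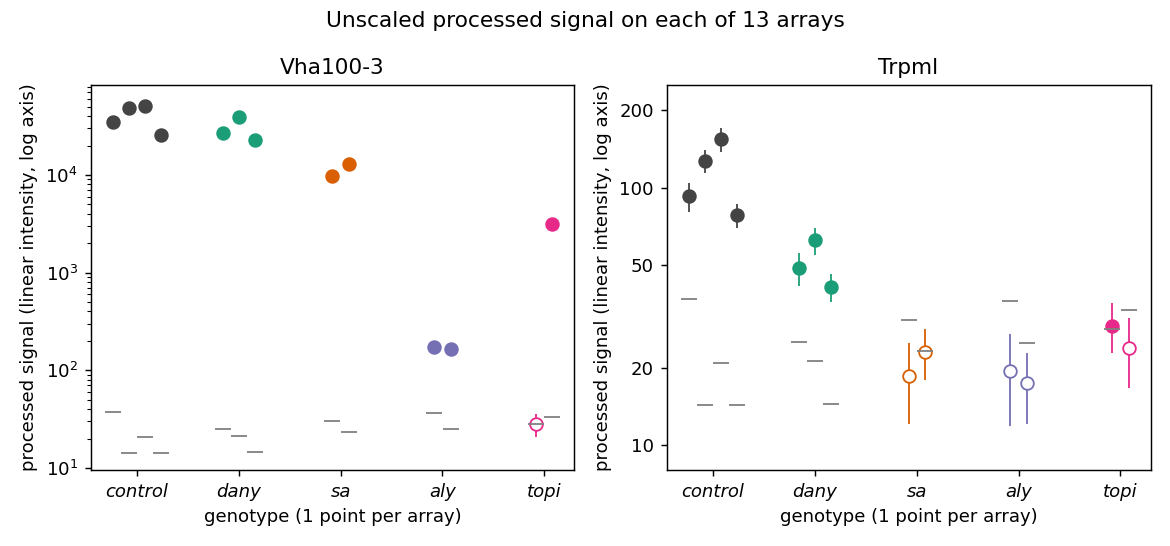
Unscaled processed signal of Vha100-3 (left) and Trpml (right) on each array by genotype, on log axes; filled points stood well above background, open points did not, bars are the scanner software's error of the spot and grey dashes the lowest signal that stood well above background on that array. Vha100-3 spans 28.3 to 50207 and separates aly and the first topi array from the rest, while Trpml stays between 17.4 and 153.8 and is highest on the 4 control arrays.

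Vha100-3 gave a bright signal in control testes. Its processed signal was 34688, 48127, 50207 and 25803 on control arrays 1 to 4, with levels of 4.17, 4.61, 4.49 and 4.40 (mean 4.42 ± 0.19 SD, n = 4). In dany it read 26621, 39381 and 22598, with levels of 2.90, 3.49 and 3.04 (mean 3.14 ± 0.31 SD, n = 3). The unscaled signals of dany thus lay within or just below the control range, while every scaled level lay below every control level. In sa the signals were 9736 and 12855 and the levels 2.03 and 2.43, below both control and dany on either scale.

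In the tMAC mutants Vha100-3 was far lower. The aly arrays read 172.4 and 165.0, both still well above background, with levels of -3.83 and -3.52. The first topi array read 28.3, which was not well above background, and the second 3150, with levels of -6.00 and 0.74. The 2 aly arrays lay close together and apart from every array of control, dany and sa, whereas the 2 topi arrays lay on either side of aly. Both topi arrays stayed below every array of control, dany and sa.

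As a background to what follows, the limma calls defined below covered 43.7% of all tested targets for dany against control, 41.8% for sa, 59.7% for aly and 63.4% for topi. Set against the control mean, Vha100-3 differed by -8.09 in aly (273-fold lower), by -2.19 in sa (4.56-fold lower) and by -1.28 in dany (2.42-fold lower). In topi the mean difference was -7.05, but the second array alone gave -3.68. The first gave -10.42, which is not a firm value because Vha100-3 was not well above background there. The gap between the topi arrays, 6.74 on the log2 scale, was exceeded by 261 of the 19758 targets, and the -3.68 of the second array lay inside the interquartile range given above for the 2435 targets on that array. The part of the second topi array's general difference in this value was not tested. The standard errors from the fit over all groups were 1.15 for dany and 1.30 for sa, aly and topi, since the topi pair enters the spread of the gene. Without either topi array they were 0.21 for dany and 0.24 for sa and aly, with the same differences.

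**Figure D2:**
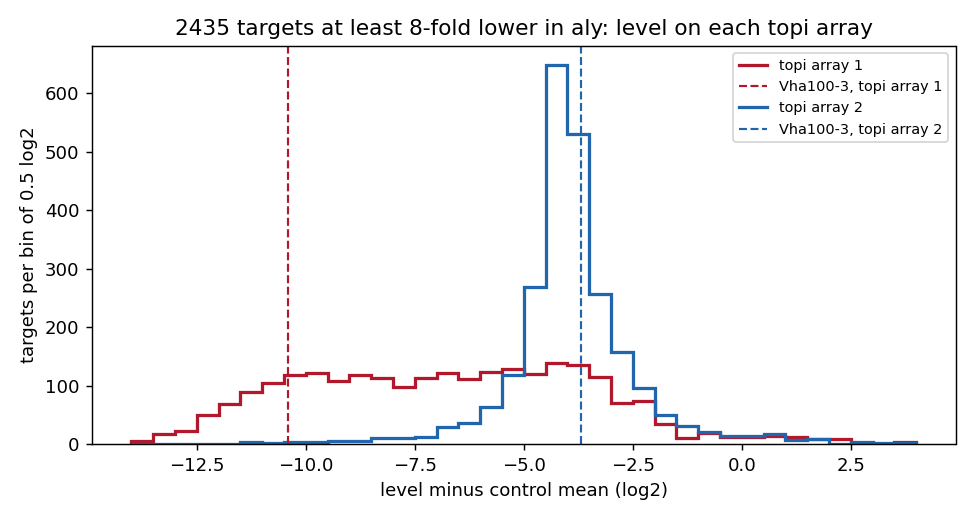
Number of targets (bins of 0.5 on the log2 scale) by their level relative to the control mean on the first and second topi array, for the 2435 targets at least 8-fold lower in aly; dashed lines mark Vha100-3. The first array spreads widely (interquartile range -9.47 to -4.26) and the second piles up near -4.003, and Vha100-3 sits at -10.42 on the first, where it was not well above background, and at -3.68 on the second.

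The arrays lay on 4 slides, each with 1 control array, so that every mutant array could be set against the control of its own slide. Vha100-3 was lower than that control in 9 of 9 such pairs. On slides 1, 3 and 4 the dany difference was -1.28, -0.996 and -1.36. The sa difference was -2.14 on slide 1 and -2.06 on slide 3, and the aly difference -8.00 on slide 1 and -8.13 on slide 2. The topi difference was -10.61 on slide 2, again not a firm value, and -3.75 on slide 3. Except in topi, the values of a mutant from different slides lay within 0.36 of each other.

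**Figure D3:**
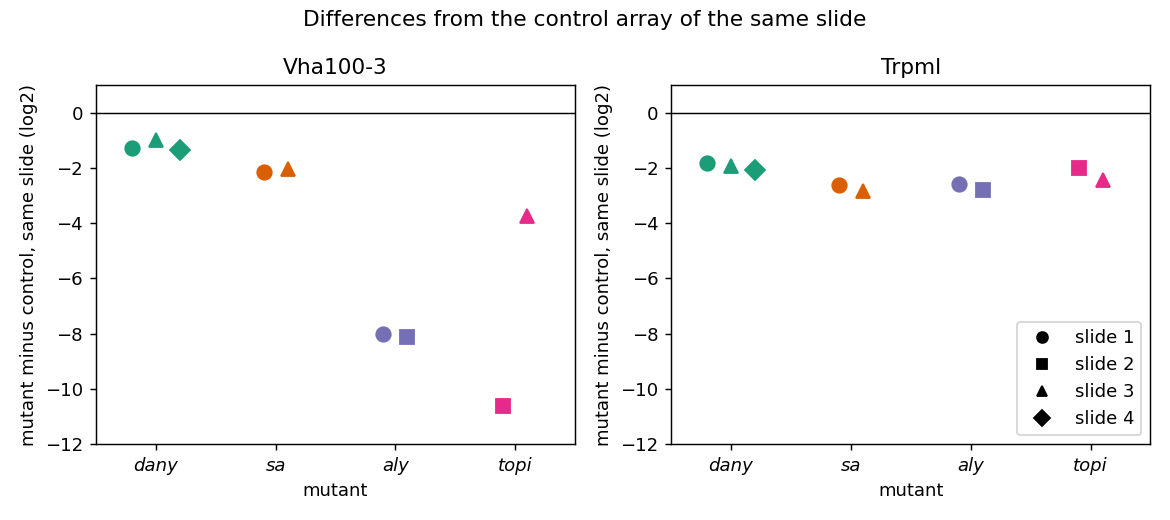
Level of Vha100-3 (left) and Trpml (right) on each mutant array minus that of the control array of the same slide, on the log2 scale; symbols give the slide. All 9 pairs are below 0 for both genes, and the 2 topi pairs of Vha100-3 lie at -10.61 (its topi array not well above background) and -3.75.

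The dany difference of Vha100-3 depended on how arrays were made comparable. On the same slide the unscaled control signal was 1.30, 1.27 and 1.14 times that of dany, and the rest of the difference came with the higher 75th percentile of the dany arrays. After quantile normalization the difference was -0.18, and in the authors' deposited log2 values it was -0.20, with overlapping ranges of 14.68 to 15.10 in dany and 14.86 to 15.24 in control. Scaling to spike-in controls gave -0.78, again with overlapping ranges, and scaling to the array median -2.03. The fit across 19758 targets had a median dany difference of 0.06. Relative to the median target Vha100-3 stood at -1.34 under each of the 3 scalings. That value had to be the same, because a scaling moves all targets of an array alike. After quantile normalization or in the deposited values it was -0.17. For the other mutants the control and mutant ranges stayed apart under all of these settings and after normexp background correction. The differences then lay between -2.47 and -1.58 for sa, -8.61 and -6.92 for aly, and -7.05 and -6.01 for topi. With the slide added to the fit as a block the sa difference was -2.73.

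**Figure D4:**
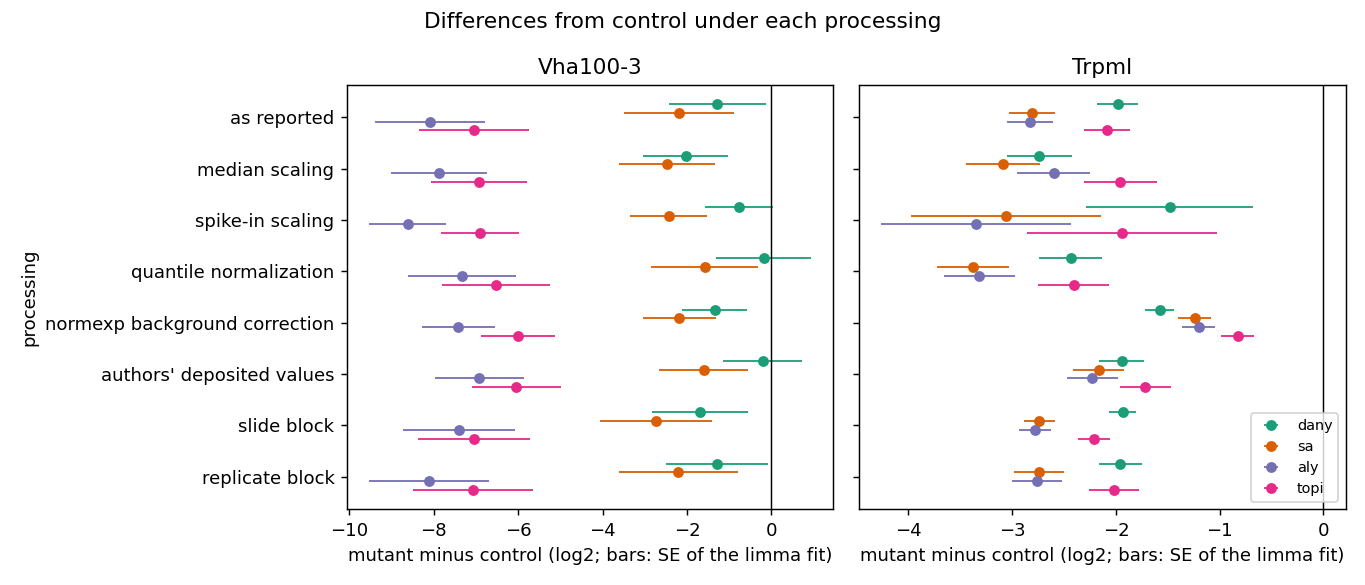
Difference of each mutant from control for Vha100-3 (left) and Trpml (right) under 8 ways of processing, as points with the standard error of the limma fit. No difference changes sign, Vha100-3 in dany moves from -2.03 to -0.18, and normexp background correction brings Trpml in topi to -0.83.

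Trpml gave a dim signal throughout. On control arrays 1 to 4 it read 92.3, 127.2, 153.8 and 78.1, all well above background, with levels of -4.38, -3.95, -3.86 and -3.97 (mean -4.04 ± 0.23 SD, n = 4). In dany it read 48.7, 62.3 and 41.1, also well above background, with levels of -6.20, -5.81 and -6.06 (mean -6.02 ± 0.20 SD, n = 3). Every dany array lay below every control array both before and after scaling. The sa arrays read 18.5 and 23.0, the aly arrays 19.5 and 17.4 and the topi arrays 29.1 and 23.9. Only the first topi array among these 6 stood well above background. The scanner software put the error of a spot at 10.3% to 14.5% of the signal in control and dany, and at 22.0% to 39.2% in the 3 arrest mutants.

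Trpml differed from control by -1.98 in dany (SE 0.20, 3.95-fold lower) and, by measured means, by -2.09 in topi (SE 0.22). Only 1 of the 2 topi arrays measured it above background, and with the other raised to its lowest signal that stood well above background the topi mean was 3.59-fold below control. In sa and aly, where no array measured it above background, the measured means of -6.85 and -6.87 are not firm levels. With each such array raised to its lowest signal that stood well above background, Trpml was 5.44-fold lower in sa and 4.33-fold lower in aly. The measured differences were -2.81 and -2.83 (SE 0.22 each). These folds are no strict minimum, since some brighter probes were not well above background and normexp correction, given below, made the differences smaller. Within slides Trpml was lower than control in 9 of 9 pairs. These differences were -1.82, -1.95 and -2.09 for dany and -2.63 and -2.83 for sa. For aly they were -2.59 and -2.81, and for topi -2.01 and -2.44. The values for sa and aly and the second value for topi rest on mutant arrays where Trpml was not well above background.

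Normexp background correction of the raw spots, which compresses dim signals, brought the Trpml difference to -1.58 for dany, -1.24 for sa, -1.20 for aly and -0.83 for topi. The control and mutant ranges stayed apart. Under spike-in scaling the dany and control ranges overlapped (difference -1.48), and the spike-in level itself varied between 7.51 and 9.54 on the log2 scale among the control arrays.

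By mean level the groups ran control, dany, sa, topi, aly for Vha100-3, and the ranges of all neighbours were apart except those of topi and aly, the second topi array being above both aly arrays and the first below both. With median scaling the dany range (5.60 to 6.45) and the sa range (5.31 to 5.76) of Vha100-3 overlapped, and in the fit over all groups the difference between sa and dany was -0.91 (SE 1.37). For Trpml the control arrays were highest, and the mutants could not be ordered, since no sa or aly array and only 1 of 2 topi arrays stood well above background. The dany and topi ranges overlapped (difference -0.11, SE 0.24). With normexp correction dany had the lowest mean of the 4 mutants, its range of -4.45 to -4.20 apart from the -3.63 to -3.53 of topi, and with median scaling its difference of -2.74 lay beyond the -2.60 of aly and the -1.96 of topi. The comparisons share the 4 control arrays.

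The other genes of the pathway were taken from 3 lists of 107 genes in all, namely V-ATPase subunits, TRP channels and endolysosomal genes. Of these, 6 were matched on the array, among them the 2 genes above, and 5 passed the filter, which asked for a probe well above background throughout at least 1 genotype. The 3 that passed besides them were Vha13, which encodes subunit G of the peripheral stalk of the pump, Trpm, a TRP channel of the melastatin family, and Rab2, a small GTPase of Golgi and late endosomal traffic. The neurobeachin-like gene bchs was not well above background on any of the 13 arrays. Calls required at least a 2-fold change and a limma p under 0.05 after Benjamini-Hochberg adjustment over all 19758 targets.

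Vha13 was higher in topi than in control, as was the median of all targets (by 0.81), while Vha100-3 was lower there. Its level was 3.72 ± 0.11 (SD, n = 4) in control and 4.58 and 4.88 on the topi arrays, higher on both than on every control array. It rose by 1.00 in topi (SE 0.18, limma adjusted p = 0.000592), barely at the 2-fold minimum, and by 0.86 without the first topi array, under that minimum. The median target was also higher in sa (0.44) and aly (0.77). There Vha13 was higher by less than 2-fold in the limma fit (0.66, adjusted p = 0.0122 in sa and 0.83, adjusted p = 0.0023 in aly). In dany Vha13 was lower by less than 2-fold (-0.47, limma adjusted p = 0.0302). The dany sign turned after quantile normalization (0.57), in the deposited values (0.57) and with spike-in scaling (0.031). The topi call ended with spike-in scaling (1.15, adjusted p = 0.318). It also fell short of 2-fold with normexp correction (0.98), the slide block (0.92) or the replicate block (0.96), and without the second (0.99) or the fourth (0.96) control array. Within slides the topi difference was 1.19 and 0.71. Other settings took Vha13 past 2-fold elsewhere. In sa the difference was called with quantile normalization (1.26, limma adjusted p = 0.000128) and in the deposited values (1.24, limma adjusted p = 7.51e-05). In aly it was called with median scaling (1.05), quantile normalization (1.06) and in the deposited values (1.04). In dany the fall was called with median scaling (-1.23, limma adjusted p = 0.00207).

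Trpm, the only other TRP channel gene that could be followed, rose in dany, where Trpml was low. Its level was -0.01 ± 0.25 (SD, n = 4) in control and 1.69 ± 0.14 (SD, n = 3) in dany, with no overlap, a limma difference of 1.70 (SE 0.20, adjusted p = 4.1e-05). Within slides the dany difference was 1.73, 1.48 and 1.70. With median scaling it was 0.94 and fell short of 2-fold. The median target was higher by 0.44 in sa, 0.77 in aly and 0.81 in topi. Trpm was higher by less than 2-fold in sa (0.90, limma adjusted p = 0.00824) and aly (0.80, limma adjusted p = 0.0102). In topi Trpm was not called (0.45, limma adjusted p = 0.103). Without the third control array or the first sa array the sa difference passed 2-fold (1.02 and 1.13), and with median scaling the aly difference did (1.03).

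Rab2 was dim, standing well above background on 1 of 4 control, 2 of 3 dany, 0 of 2 sa, 2 of 2 aly and 1 of 2 topi arrays. It passed the filter only through aly, the group that had to be bright for it to be kept, so its values are given with no test. Its processed signal was 18.4, 17.4, 18.2 and 7.11 on the control arrays, 46.7 and 33.7 on the aly arrays and 45.5 and 29.8 on the topi arrays. Both of these mutants read above every control array. The measured means differed from control by 1.30 in aly and by 1.42 in topi, and with normexp correction by 0.26 and 0.50.

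By comparison, of Vha13 and Trpm, both well above background on all 13 arrays, 1 was called for dany, the rise of Trpm, where 28.0% of all targets rose and 15.6% fell. Neither was called for sa, where both had a limma adjusted p under 0.05 but rose by less than 2-fold. Of all targets, 27.0% were called higher and 14.8% lower for sa. Neither was called for aly, where again both had a limma adjusted p under 0.05 but rose by less than 2-fold. Of all targets, 39.2% were called higher and 20.5% lower for aly. For topi 1 was called, the rise of Vha13, against 42.0% higher and 21.4% lower. The somatic cell marker eya was also higher in topi (1.21, called), where the median target was higher by 0.81. The somatic markers puc (-0.70) and ptc (-0.14) measured lower in topi, ptc being well above background on neither topi array. Both puc and ptc were called in no mutant. The part of the somatic cell share in these results was not tested.

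**Figure D5:**
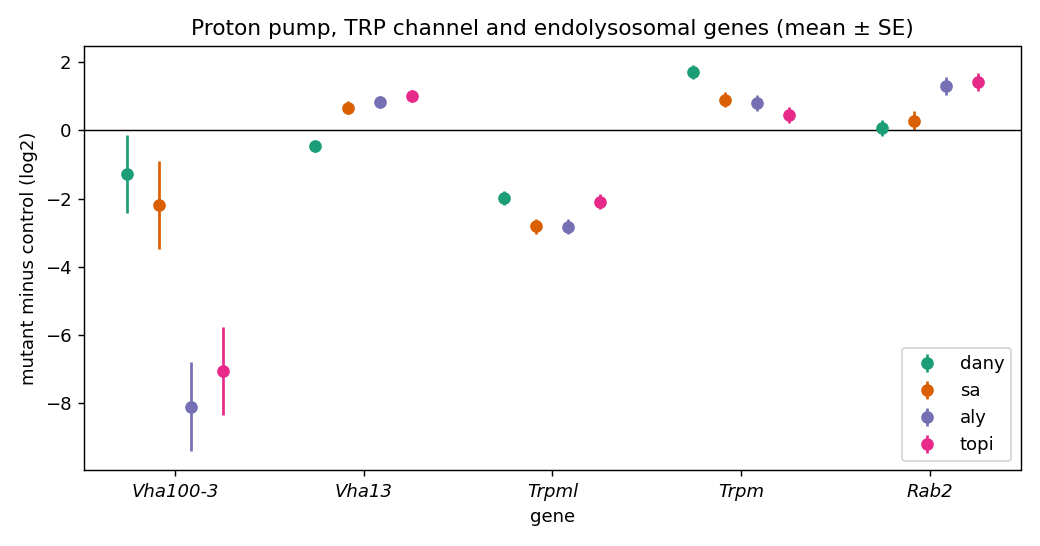
Difference of each mutant from control on the log2 scale, as group means with the standard error of the limma fit, for Vha100-3 and Vha13 of the proton pump, the channels Trpml and Trpm, and Rab2; Trpml in sa and aly and Rab2 in sa stood well above background on no array. Vha100-3 and Trpml are below 0 in all 4 mutants and Trpm reaches 1.70 in dany. Vha13 is above 0 in sa, aly and topi, where the median target was also higher (0.44, 0.77 and 0.81).

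Only 254 other named genes, a small part of the 19758 targets tested, could be ranked by likeness to each gene. Among these 254, those whose levels followed Vha100-3 most closely over the 13 arrays were 3 noncoding RNA genes. These were asRNA:CR31144 (Pearson r = 0.99), asRNA:CR32252 (r = 0.98) and lncRNA:CR41601 (r = 0.98). All 3 read higher on the second topi array than on the first. asRNA:CR31144 stood at 3.58 ± 0.09 (SD, n = 4) in control, at -4.31 and -3.84 in aly and at -5.01 and -0.44 in topi. asRNA:CR32252 stood at 3.20 ± 0.20 in control and at -1.41 on the second topi array, and was not well above background in aly or on the first topi array. Rab2 (r = -0.93) and eIF3g1, a translation initiation factor gene (r = -0.89), ran most opposite to it. The mean level of eIF3g1 was 1.33 in control, 3.14 in aly and 3.53 in topi. Rab2 stood well above background on only 6 of the 13 arrays and passed the filter only through aly, where Vha100-3 was low. Both coefficients changed with the processing, to -0.30 for Rab2 and -0.42 for eIF3g1 with spike-in scaling.

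Trpml was followed most closely by lncRNA:CR43306 (r = 0.97), puf, a ubiquitin-specific protease gene (r = 0.96), and Hsc70-1, a heat shock cognate chaperone gene (r = 0.95). lncRNA:CR43306 had a mean level of 3.66 in control, 1.45 in dany and 0.55 to 0.62 in the 3 arrest mutants. The mean level of puf was -0.95 in control, -1.86 in dany and -3.03 to -2.47 in the arrest mutants. Pa1 (r = -0.93) and lncRNA:CR40629 (r = -0.91) ran most opposite to it. In control Pa1 stood well above background on 2 of 4 arrays and lncRNA:CR40629 on 0 of 4. Both passed the filter only through mutants, where Trpml was lower, so their opposite run is partly set by the filter. With normexp correction these coefficients were only -0.41 and -0.15. Those of lncRNA:CR43306 and puf were then 0.82 and 0.78. All these arrays share the array scaling and the genotype groups, so the coefficients describe the 13 arrays and were not tested.

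In the RefSeq gene table of Drosophila melanogaster, Vha100-3 overlaps the gene sano and lies between CG43109 and prod. Trpml overlaps no other gene there and lies between serp and CG42637. None of these neighbours was matched to a probe, so neighbouring transcripts could not be set beside the 2 genes.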

How the data were processed

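Total RNA was labelled with Cy3 and hybridised to 13 Agilent arrays, per the labels' protocols. Per the file headers, the authors extracted spots with Agilent Feature Extraction 10.7.3.1 on a design annotated to dm3. The deposited scanner files give linear intensity: a processed signal, background subtracted and not scaled between arrays, and the raw median and background signals. The deposited series table holds log2 values, nearly equal in distribution across arrays as after quantile normalization. Its background correction is not given in the sources used here, so it served as an alternative.

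Control spots (1417 of 45019) were left out, no spot was saturated, and spots of a probe were averaged without flagged outliers, giving 32162 probes. Accessions (393 probes) and synonyms (156) of the RefSeq table named 468 genes. The brightest probe passing the background filter represented a target, and 19758 were tested. Groups came from the sample titles. The linear model gave each genotype its own mean over the 13 arrays (limma 3.58.1, R 4.3.3). It was also run on simulated data with independent normal noise and no slide differences. That run does not bear on the slides or on the split topi pair. The genes and lists were chosen with earlier results of these data known. Named were both genes, every tested listed gene, and the 3 genes of highest and 2 of lowest correlation with each, without those named by a bare annotation number. Alternatives changed scaling, background correction, filter, blocks or 1 array at a time. The labels do not say that replicate numbers pair samples. Of 21 same-numbered pairs of different groups 12 had deviations correlated above 0.1, against 2 of 39 pairs sharing neither number nor slide. Where the same-numbered arrays lay on different slides, 4 of 11 pairs did. In a group of 2 arrays the deviations mirror each other, so these pairs are not independent. Neither numbers nor slides were a block in the main fit, and each was an alternative. The main standard errors and adjusted p-values thus leave slide differences in the spread. The labels call the replicates biological. The number of arrays limits the precision.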

Additional observations from a re-analysis of the deposited data

How the results depend on the processing

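Over 168 recomputed differences of Vha100-3 and Trpml from control none changed sign. Many of these could not change. Leaving out an array of another mutant, or dropping the filter on dim probes, returned the same difference. Of the 64 that changed the processing, 34 moved by less than the replicate SD. These 34 include the values without the filter, and all those of Vha100-3 in topi, where the SD was 4.76. The other 30 follow. With median scaling Vha100-3 was -2.03 in dany and -7.86 in aly, and Trpml -2.74 in dany and -3.09 in sa. With spike-in scaling Vha100-3 was -0.78 in dany and -8.61 in aly, and Trpml -1.48 in dany, -3.06 in sa and -3.35 in aly. With quantile normalization Vha100-3 was -0.18 in dany, -1.58 in sa and -7.33 in aly, and Trpml -2.44 (dany), -3.38 (sa), -3.32 (aly) and -2.41 (topi). With normexp background correction Vha100-3 was -7.42 in aly, and Trpml -1.58 (dany), -1.24 (sa), -1.20 (aly) and -0.83 (topi). In the authors' deposited values Vha100-3 was -0.20 in dany, -1.60 in sa and -6.92 in aly, and Trpml -2.16 in sa, -2.23 in aly and -1.72 in topi. With the slide as a block Vha100-3 was -1.69 in dany, -2.73 in sa and -7.40 in aly. The cause of these shifts was not tested, apart from the scalings, which move all targets of an array alike. Leaving out 1 array, which in a group of 2 always moves the mean by less than their SD, gave Vha100-3 -1.45 to -1.15 (dany), -2.39 to -1.99 (sa), -8.25 to -7.94 (aly) and -10.42 to -3.68 (topi), and Trpml -2.10 to -1.89, -2.97 to -2.65, -2.94 to -2.72 and -2.26 to -1.92.

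The counts of calls among the 3 listed genes include Rab2, which passed the filter only through aly. Calls of Rab2 are therefore no test of that gene and only show how the counts moved. In sa 1 was called with quantile normalization and in the deposited values, Vha13 each time. In aly 3 were called with median scaling, Rab2 among them, and 0 with spike-in scaling or normexp correction. In topi 0 were called with spike-in scaling or normexp correction. There 1 was called with quantile normalization and in the deposited values, Vha13 each time. With the slide block and with the replicate block 1 was called, Rab2 each time, and neither Vha13 nor Trpm was. Leaving out 1 array gave 0 to 1 in sa and 1 to 2 in topi. Signs turned for Vha13 in dany (0.031 with spike-in scaling, 0.57 with quantile normalization and 0.57 in the deposited values), and for Rab2 in sa (-0.60 with quantile normalization, -0.10 with normexp correction and -0.19 in the deposited values). Rab2 in dany turned to -0.69 with median scaling, -0.54 with quantile normalization, -0.74 with normexp correction and -0.24 in the deposited values. It also turned to -0.11 with the replicate block and, with 1 array left out at a time, ranged from -0.11 (without control replicate 4) to 0.15, with -0.01 without dany replicate 3. Same-numbered arrays of different groups had deviations correlated at a median r of 0.48 (0.03 where they lay on different slides). For arrays of different groups on the same slide the median r was 0.56, and 11 of 16 pairs were above 0.1. The replicate block left Vha100-3 at -1.28, -2.20, -8.11 and -7.06 and Trpml at -1.96, -2.74, -2.76 and -2.02 in dany, sa, aly and topi. The share of rises among all called targets varied with the scaling, from 33.5% to 84.0% (dany), 33.1% to 64.6% (sa), 31.7% to 70.8% (aly) and 56.1% to 68.9% (topi), and the median difference of all targets from -0.69 to 0.57, 0.10 to 0.44, 0.25 to 1.00 and 0.48 to 0.96. Of the correlations with named genes, 14 moved by over 0.1, among them lncRNA:CR40629 to -0.52 and Pa1 to -0.68 with spike-in scaling. Trpml lay near background in sa, aly and topi and Rab2 on most arrays, which limits what their probes can show.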
